A study of Mus musculus with 20 samples.

Results

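Astrocytes of the basolateral amygdala (BLA), a brain region involved in fear and mood, were examined in single-cell RNA sequencing of mice given corticosterone and ketamine. A barcode was counted as an astrocyte when at most 1 in 8 of its unique molecular identifiers (UMIs, each a tag of 1 captured transcript) were mitochondrial and at least 200 genes were detected. It also needed at least 3 UMIs summed over Gja1, Aqp4, Ntsr2, Cldn10, Slc1a3, Plpp3 and Slc6a11. At most 1 UMI was allowed over 12 genes of other cell types (Cx3cr1, C1qa, Cldn5, Flt1, Mog, Mag, Pdgfra, C1ql1, Kcnj8, Vtn, Slc17a7 and Gad1). The rule found 1364 astrocytes among the 5908 barcodes that passed the first pair of limits, a share of 23.1%, in 9 libraries with 26253 barcodes in all. The 10 BLA libraries together held 28722 barcodes.

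All mice were wild-type C57BL/6 males, 13 weeks old by the labels, and each library came from 1 mouse, named here by its number. Corticosterone (CORT), the main glucocorticoid stress hormone of rodents, was given for 6 weeks at 35 µg/ml in the drinking water. The control was 2-hydroxypropyl cyclodextrin (BCD), the carrier of the hormone. The study's methods name this vehicle too, while their single-cell section speaks of plain water, and the labels were followed. Ketamine (Ket), a channel blocker of the NMDA glutamate receptor, was injected once at 10 mg/kg and saline (Sal) was its control, both 24 h before the brains were taken. Mice 9901 and 9947 received neither drug (BCD/Sal). Mice 9946, 9949 and 9986 received ketamine alone (BCD/Ket), mouse 9969 the hormone alone (CORT/Sal), and mice 9967, 9968 and 9971 both (CORT/Ket). A further CORT/Sal library (9970) was left out by the rule, so CORT/Sal rested on 1 library. The labels name the BLA as the tissue, while the dissection text that accompanies them speaks of prefrontal cortex, and the labels were followed.

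Astrocytes are the glial cells that take up glutamate and potassium after synaptic activity, supply neurons with lactate and cholesterol, and wrap capillaries with end-feet. They carry glucocorticoid receptors, and several genes of their daily clock and of Notch signalling are known to respond to hormones and to neighbouring cells. Reactive astrocytes raise intermediate filaments such as Gfap and complement genes such as C4b.

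The libraries differed widely in the number and depth of their astrocytes. The 6 large libraries held 1306 astrocytes, with 272 in 9901, 181 in 9949, 220 in 9986, 179 in 9969, 208 in 9968 and 246 in 9971. The other 3 libraries held 13 (9947), 17 (9946) and 28 (9967) and only 1.40% of all astrocyte UMIs. Median UMIs per astrocyte ran from 1081.5 in 9901 to 3073 in 9949 among the large libraries, and from 481 to 629 in the small ones. Summed over cells, the astrocyte count was lowest in 9947 (8909 UMIs) and highest in 9949 (548792 UMIs).

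**Figure D1:**
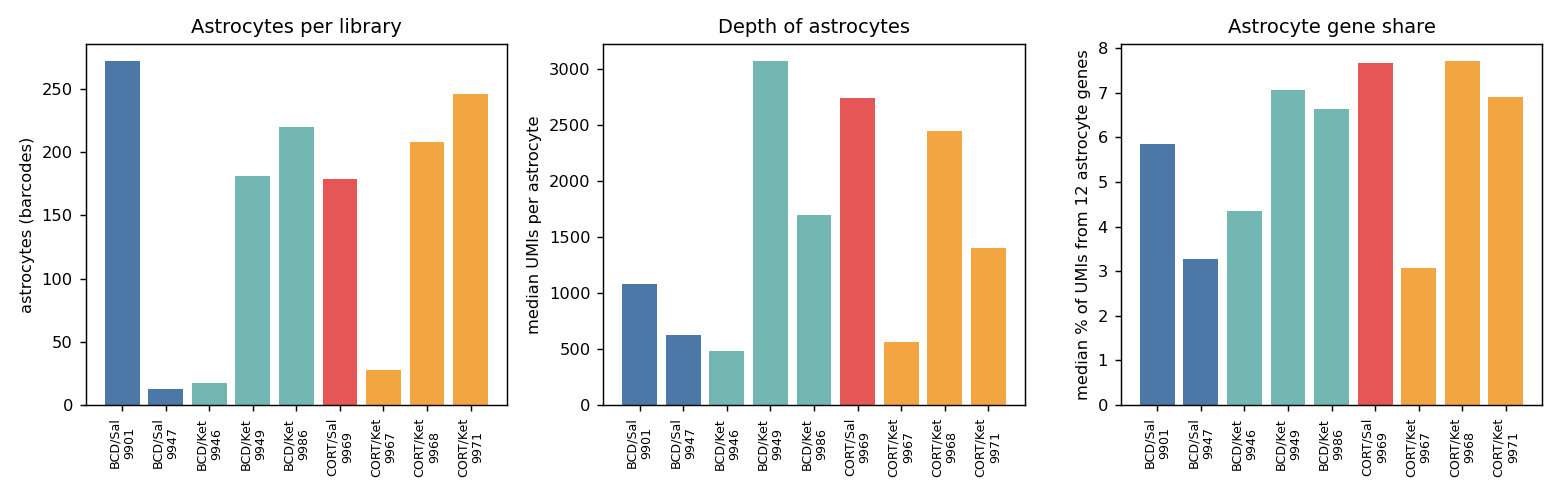
Bars give, for each of the 9 libraries, the astrocytes (barcodes), the median UMIs per astrocyte and the median percent of an astrocyte's UMIs from 12 astrocyte genes, coloured by group. The small libraries 9947, 9946 and 9967 have 13, 17 and 28 astrocytes and the lowest values in all 3 panels.

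The 3 small libraries stood apart in other ways. Over all their barcodes, the ratio of mt-Co1 to mt-Co2, both subunits of cytochrome c oxidase encoded by mitochondrial DNA, was 0.0751 in 9947, 0.0795 in 9946 and 0.181 in 9967. It lay between 0.758 and 1.03 in the 6 large libraries. The ratio of mt-Co3 to mt-Co2 lay between 0.968 and 1.45 in all 9. Microglial barcodes, counted by a like marker rule, numbered 0, 0 and 3 in the small libraries and 116 to 179 in the large ones. The number of genes passing each test is therefore given with and without them, as are single genes whose call changed, and levels below are means over the 6 large libraries unless stated. No cell barcode was shared by astrocytes of any of the 36 pairs of libraries, although 85 barcodes were shared over all barcodes and 9 over kept ones.

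At the limits of the rule, the 43 astrocytes with exactly 3 marker UMIs had a median of 635 UMIs, of which 2.55% came from 12 astrocyte genes. The 35 barcodes just outside, with 2 marker UMIs, had 888 UMIs and 1.13%. The 71 astrocytes with 1 UMI of an excluded gene had 6.38%, close to the 6.75% over all astrocytes, and the 23 barcodes with 2 such UMIs had 2.58%. The median astrocyte held 23 marker UMIs.

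The label was checked against genes that the rule did not use. Of 30 further astrocyte genes that the rule did not use, all were detected and none was at 0. Their summed level was 89183 ± 10176 CPM (UMIs in each 1000000 astrocyte UMIs of a library; SD, n = 6) in astrocytes and 15153 CPM in the other kept barcodes. These comparisons with other barcodes are descriptions, since the cells were chosen by expression. CPM here counts transcript ends and is not divided by gene length. Apoe, the lipid carrier through which astrocytes export cholesterol, was at 21049 ± 4692 CPM, and Clu, a secreted chaperone, was at 5080 ± 437 CPM. Sox9, a transcription factor of the astrocyte lineage, was at 689 ± 99.0 CPM, which was 38.0 times its level elsewhere. The lists for other cell types hold some genes that the rule excluded. Their low sums in astrocytes were thus partly set by the choice of cells and do not check the label. Microglia markers summed to 68.6 CPM in astrocytes and 11504 CPM elsewhere, precursor markers to 135 and 1093 CPM, and oligodendrocyte markers to 491 and 9140 CPM. Mural markers summed to 357 and 1958 CPM, endothelial markers to 854 and 12803 CPM, and neuron markers to 2313 and 15315 CPM. Genes of motile cilia, in contrast, were higher in astrocytes (897 CPM) than elsewhere (404 CPM), but this rested on 24 cells described below, without which they lay at 73.8 to 114.8 CPM in the 6 large libraries. Of the 1364 cells, 59 drew under 2% of their UMIs from the 12 astrocyte genes.

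Genes for the clearance of transmitter and ions were abundant. Slc1a2, the main glutamate transporter, was at 9488 CPM in 9901, 7817 in 9949, 10599 in 9986, 7477 in 9969, 7829 in 9968 and 11127 in 9971. The groups overlapped in these values, and the mean of 9056 ± 1574 CPM was 24.2 times that of the other barcodes. Glul, which converts glutamate to glutamine, was at 2168 ± 316 CPM, only 3.95 times the level elsewhere. Kcnj10, a potassium channel, was at 177 ± 30.9 CPM. Slc7a10, a carrier of small amino acids such as serine, was at 600 ± 125 CPM, 24.1 times the level of other barcodes.

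Other genes were more restricted to astrocytes. Among genes at 50 CPM or more, the largest fold over other barcodes was that of Cyp4f15, a fatty acid hydroxylase (183 ± 30.6 CPM, 126-fold). Grin2c, an NMDA receptor subunit, was at 439 ± 57.6 CPM and 68.5-fold higher. Fzd2, a Wnt receptor, was 60.1-fold higher and Agt, the precursor of angiotensin, was 58.8-fold higher. All of these were higher in 6 of 6 large libraries.

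Enzymes of energy use and sterol synthesis were also detected. Aldoc, a glycolytic enzyme, was at 3816 ± 811 CPM. Sqle and Dhcr7, enzymes of cholesterol synthesis, were 5.11-fold and 4.82-fold higher than elsewhere. Metallothioneins, which bind zinc and copper, were abundant, with Mt1 at 4601 ± 811 CPM and Mt3 at 3329 ± 820 CPM. Nr3c1, the glucocorticoid receptor, was at 146 ± 28.9 CPM and at 0.799 times its level in other barcodes, lower in all 6 large libraries. Nr3c2, the mineralocorticoid receptor, ranged from 7.58 CPM in 9969 to 54.9 CPM in 9971. Lhx2, a forebrain transcription factor, was at 274 ± 36.2 CPM. Of the phagocytosis receptors, Mertk was at 489 ± 148 CPM and Megf10 at 77.6 ± 15.7 CPM.

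**Figure D2:**
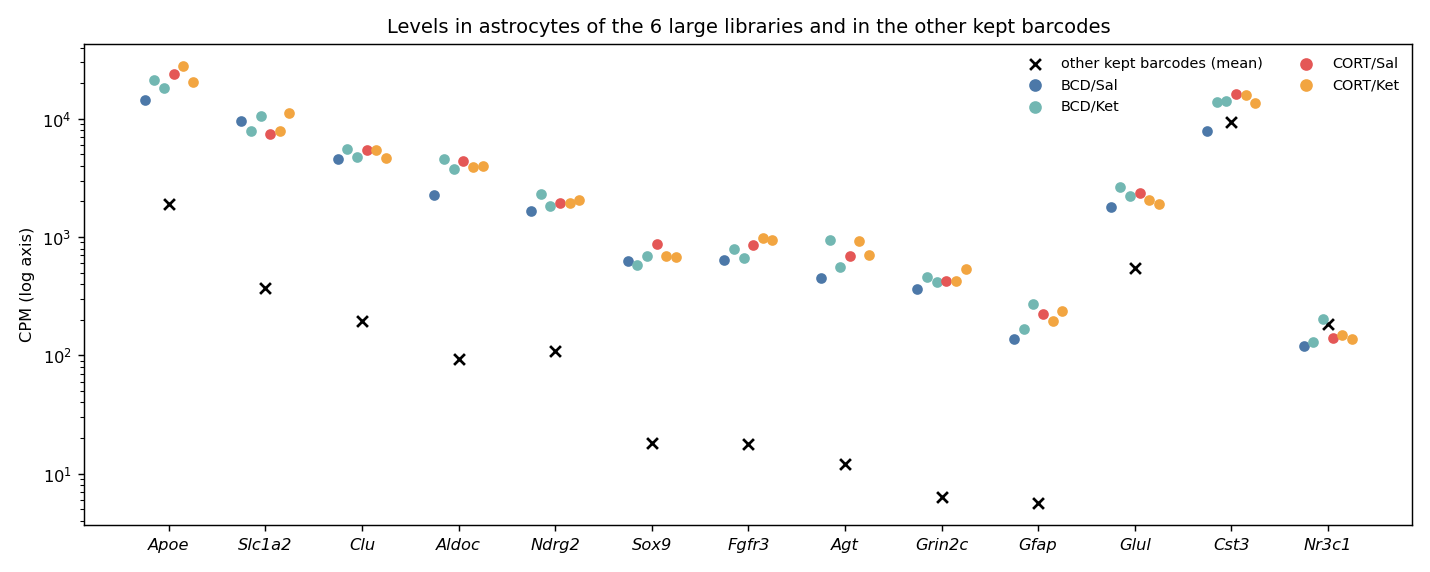
Points give CPM on a log axis for 13 genes in the astrocytes of the 6 large libraries, coloured by group, and crosses give the mean of the other kept barcodes of those libraries. Astrocyte genes such as Aldoc and Grin2c lie well above their crosses, while Nr3c1 (146 CPM against 183) lies near its own.

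Gfap, the intermediate filament, was detected in a minority of astrocytes. Each cell was thinned to 1000 UMIs, and shallower cells and ciliated barcodes (described below) were left out. After this, 144 of 963 astrocytes (14.95%) had a Gfap UMI, against 290 of 1340 (21.6%) unthinned with shallower cells kept. Under the same thinning, 1 of 721 endothelial barcodes (0.139%) and 3 of 725 microglial barcodes (0.414%) had one. The median depths before thinning were 1571 UMIs in astrocytes, 1424.5 in endothelial barcodes and 1600.5 in microglia. Among large libraries, the thinned share was 13.99% in 9901, 12.7% in 9949, 23.7% in 9986, 12.8% in 9969, 8.79% in 9968 and 19.0% in 9971. The ketamine groups spanned the whole range, and mice of the same group differed by more than the groups did.

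Between astrocytes with and without a Gfap UMI, C4b, a complement gene, differed most evenly, at 195 ± 82.4 CPM against 93.9 ± 24.8 CPM, and was higher in 6 of 6 libraries. Apoe and Mt1 were also higher in 6 of 6. Fzd2 and the GABA-B receptor subunit gene Gabbr1 were lower in 6 of 6. These are descriptions with no test, since the cells were split by their own counts. Lcn2, a gene of strongly inflamed astrocytes, had no UMI in any of the 9 libraries.

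**Figure D3:**
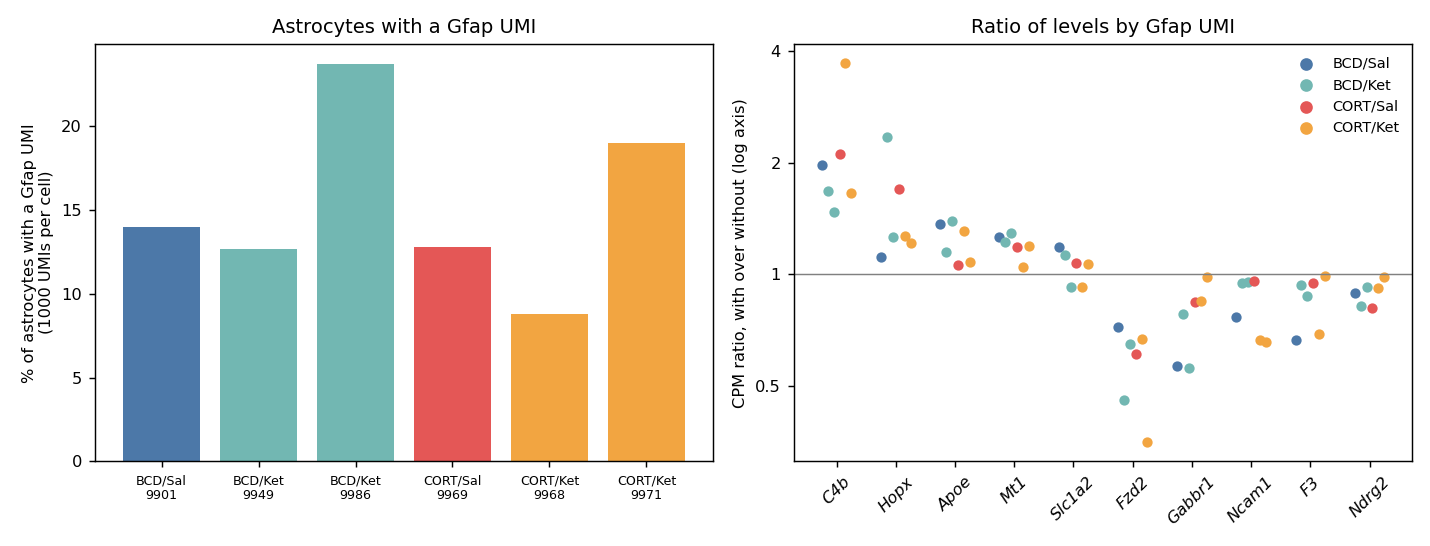
Left, the percent of astrocytes with a Gfap UMI at 1000 UMIs per cell in the 6 large libraries, from 8.79% in 9968 to 23.7% in 9986. Right, the ratio of CPM in astrocytes with over those without a Gfap UMI, 1 point per library on a log axis; C4b lies above 1 and Fzd2 below 1 in all 6.

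A small set of barcodes that met the rule carried genes of motile cilia, the beating hairs of ependymal cells. Of the 1364 astrocytes, 24 (1.76%) had at least 10 UMIs of 17 cilium genes, a list drawn up after the data were seen, each with at least 24, while every other astrocyte had 5 or fewer. They numbered 10 in 9901, 1 in 9949, 4 in 9986, 2 in 9969, 3 in 9968 and 4 in 9971, and none was seen in the small libraries. In 9901 they supplied 12.3% of the astrocyte UMIs, against 1.22% to 6.41% in the other large libraries. Between 1.37% and 2.01% of their UMIs came from the 12 astrocyte genes, compared with 5.90% to 7.83% in the other astrocytes of those libraries. Foxj1, the transcription factor that switches on motile cilium genes, is among the 17 genes that picked these barcodes, and 95.7% of its UMIs lay in them.

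The promoters of the cilium genes were read for the X-box, since these genes varied together across the libraries. The X-box is the DNA element bound by RFX factors, which act with Foxj1, and its half-site GTTGCC was searched on both strands in the 250 bases before each RefSeq start (GRCm38.p6). It was found in 6 of 15 promoters of the 13 cilium genes matched (40.0%) and in 3425 of 32851 promoters of all genes (10.4%). It was also found in 6 of 19 promoters of the 20 genes with the largest fold in astrocytes (31.6%) and in 3 of 33 of the 30 further astrocyte genes (9.09%), so the higher share was not confined to cilium genes. The half-site of NFI factors, TTGGCA, was searched in the same way and was in 12.3% of all promoters, in 0 of 15, in 3 of 19 (15.8%) and in 6 of 33 (18.2%). A match is a description of letters and not a binding site. The last 120 bases before the start are shown for 3 cilium genes with a match, the matched half-site or its reverse complement in capitals: Hydin, of the ciliary axoneme, at chr8:110266857-110266976 on the plus strand, Sntn, of the cilium tip, at chr14:13670756-13670875 on the plus strand, and 1110017D15Rik at chr4:41507765-41507884 on the minus strand.
Hydin: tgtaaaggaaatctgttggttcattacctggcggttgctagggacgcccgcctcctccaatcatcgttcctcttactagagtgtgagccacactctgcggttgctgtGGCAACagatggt
Sntn: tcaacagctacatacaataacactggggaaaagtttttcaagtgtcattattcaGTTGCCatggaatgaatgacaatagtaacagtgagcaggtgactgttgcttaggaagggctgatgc
1110017D15Rik: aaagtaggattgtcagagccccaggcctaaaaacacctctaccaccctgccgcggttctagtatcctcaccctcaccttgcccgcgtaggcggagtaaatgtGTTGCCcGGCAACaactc

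**Figure D4:**
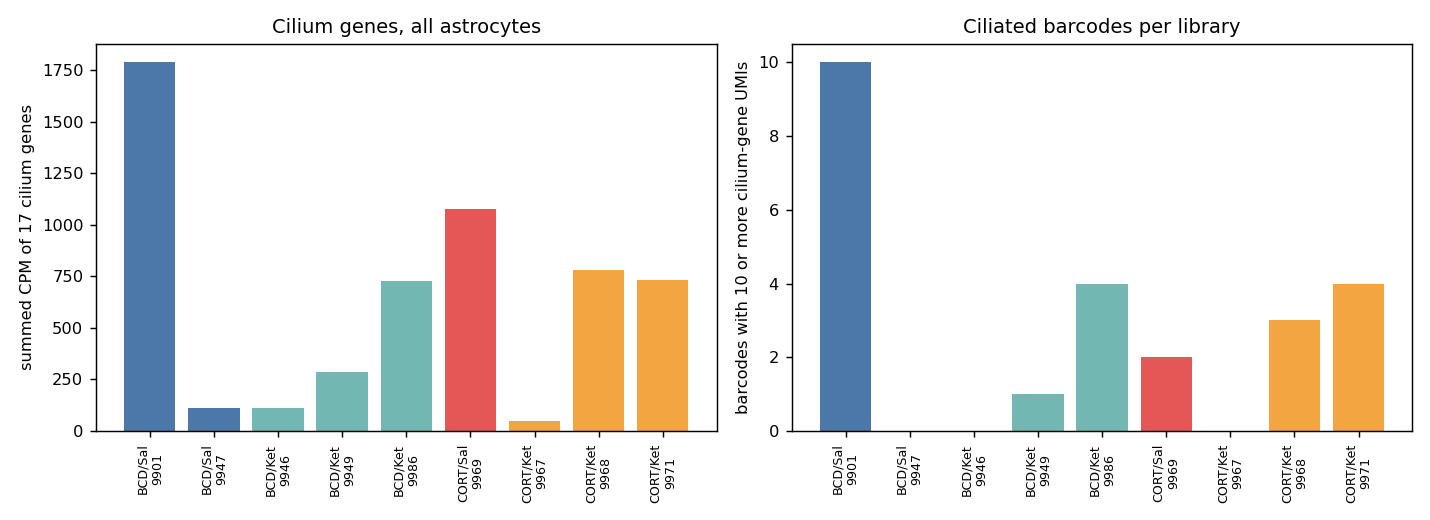
Left, the summed CPM of 17 cilium genes in all astrocytes of each library, from 48.6 in 9967 to 1787 in 9901. Right, the number of barcodes with at least 10 UMIs of those genes, from 0 in the small libraries to 10 in 9901.

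Ketamine without corticosterone was examined by comparing BCD/Ket with BCD/Sal. Astrocyte counts were summed per library and tested with the quasi-likelihood test of edgeR over 9043 genes. At an adjusted p under 0.05, 74 genes passed (0.818% of those tested), 72 lower (0.796%) and 2 higher (0.0221%) with ketamine. BCD/Sal holds 1 large library. Without 9901 no gene passed, but BCD/Sal is then 13 astrocytes with 8909 UMIs and all genes tested have a median log2 change of 5.48, so that fit says little about any gene. Without 9949, 4 genes passed. Without the small libraries, 69 genes passed, of which 46 were among the 74, but BCD/Sal is then 9901 alone, and that mouse is assumed to vary like those of the other groups. The library 9901 had the highest CPM for 65 of the 74, and the library CPM of the groups overlapped for all 74, against 13.6% of genes tested whose values did not overlap. DESeq2 called 0 genes, and 497 genes had an unadjusted edgeR p under 0.05.

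Genes seen mainly in the ciliated barcodes made up much of the lower set. Of 16 cilium genes tested, 7 passed as lower and 0 as higher, with a median log2 fold change of -2.06, against 0.796% of all genes called lower and a median of 0.08. Since this list was drawn up after the data were seen, these counts are a description. Dnah6, a dynein motor of the axoneme, was at 107 CPM in 9901, 0 in 9947 and 9946, 7.29 in 9949 and 13.1 in 9986, a log2 fold change of -3.20 ± 0.60 (SE; edgeR adjusted p = 0.000299). Hydin was at 81.7 CPM in 9901, 1.82 in 9949 and 18.4 in 9986, with no UMI in the small libraries of these groups (log2 fold change -2.97). Only 9901 was high for both genes. Over 50% of the UMIs of 42 of the 74 genes came from the 24 ciliated barcodes, and without those barcodes 32 genes passed, of which 28 were among the 74.

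Neuron markers were also lower in the median. Of 12 tested, 1 passed as lower and 0 as higher, against 0.796% of all genes called lower. The median log2 fold change was -1.45, against 0.08 over all genes. The 12 include Slc17a7, which the rule held to at most 1 UMI per cell, so the tally, the median and the sums below are descriptions. Syt1, the calcium sensor of synaptic vesicles, was at 95.8 CPM in 9901, 12.8 in 9949 and 21.0 in 9986 and at 0 in 9947 and 9946 (log2 fold change -2.34 ± 0.57, adjusted p = 0.0112). Its UMIs were spread over 62 astrocytes, 26 of them in 9901. The summed neuron markers were at 5495 CPM in 9901, 786 in 9947, 221 in 9946, 1354 in 9949, 1960 in 9986, 1318 in 9969, 6558 in 9967, 1334 in 9968 and 2418 in 9971. One of the 18 neuron markers had no UMI. Meg3, a neuronal non-coding RNA, was detected in 183 of the 272 astrocytes of 9901 (67.3%) and in 12.3% to 55.0% of those of the other large libraries. The part of neuronal RNA in these calls was not tested.

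Singled out after their values were seen, 2 genes rose and 1 fell by a large amount. Ptgds, a prostaglandin synthase of meninges and oligodendrocytes, was at 1358 CPM in 9901 against 49.2 in 9949 and 26.3 in 9986, but 1 barcode of 9901 held 80.2% of its UMIs (log2 fold change -4.36, adjusted p = 0.000364). With 0 UMIs of excluded genes allowed, the value was 0.85. Ass1, an enzyme of arginine synthesis, was at 2.82 CPM in 9901, 36.4 in 9949 and 63.1 in 9986 and at 0 in both small libraries (log2 fold change 3.997 ± 1.04, adjusted p = 0.0216). It was seen in 1 astrocyte of 9901 and in 15 and 21 of 9949 and 9986. Pde10a, a cyclic nucleotide phosphodiesterase, was at 215 CPM in 9949 and 221 in 9946 but at 15.8 in 9986 and 16.9 in 9901 (log2 fold change 2.97 ± 0.76, edgeR adjusted p = 0.0208). The mice of BCD/Ket thus disagreed, and the value of 9946 rested on 2 astrocytes, against 52 in 9949. Pde10a was also seen in 29 astrocytes of 9969, a mouse given no ketamine. Without 9949 its log2 fold change was 0.45, and without the small libraries it did not pass (edgeR adjusted p = 0.846). Neither rise passed once ciliated barcodes were left out (edgeR adjusted p = 0.0604 for Ass1 and 0.148 for Pde10a).

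No gene of the lists of astrocyte functions passed as higher. The 30 further astrocyte genes had 0 calls and a median log2 fold change of 0.52, against 0.08 over all genes, with all 30 positive. The lists for transmitter and ions (26 tested), lipids (30), energy (20), glucocorticoid response (23), clock (21), reactive state (13) and planar cell polarity (17) had 0 calls each in this comparison. Of 31 receptor genes tested, 1 passed as lower, against 0.796% of all genes, and 21 had a positive fold change. Their median was 0.17, against 0.08 over all genes. The lower one was Grm5, a glutamate receptor gene, which fell by 2.25 on the log2 scale (adjusted p = 0.0361) and was seen in 23 astrocytes of 9901. Fdps, of the isoprenoid pathway, had the smallest adjusted p of the lipid list, 0.132, at 16.9 CPM in 9901, 96.6 in 9949 and 84.1 in 9986, and it passed without the small libraries (edgeR adjusted p = 0.00761), where BCD/Sal is 1 mouse. Apoe was at 14363 CPM in 9901 and 18287 to 21265 in the large BCD/Ket libraries (log2 fold change 0.81, adjusted p = 1.00), and the small libraries were at 4966 and 5163 CPM.

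Corticosterone in ketamine-treated mice was examined by comparing CORT/Ket with BCD/Ket, 3 mice against 3, a comparison that shares the BCD/Ket libraries with the one above. Of 9043 genes, 6 passed (0.0663%), 5 higher (0.0553%) and 1 lower (0.0111%). DESeq2 called 0, and 160 genes had an unadjusted edgeR p under 0.05. Without the small libraries 1 of the 6, Dcn, passed, without 9949 the count was 10 and without 9971 it was 11. With RLE factors in place of TMM, 2 were higher and 1 lower. All 6 rested on 10 or fewer astrocytes, and no call had groups that did not overlap, against 6.87% of all genes tested.

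Genes of fibroblasts, skin and red blood cells were among the higher ones. Mgp, a matrix protein of vessel walls and fibroblasts, was at 358 CPM in 9968, 49.4 in 9971 and 0 in 9967. It was at 0 or 2.63 CPM in the libraries of BCD/Ket (log2 fold change 6.96 ± 0.84, edgeR adjusted p = 9.6e-12). Its 269 UMIs lay in 7 astrocytes, and 1 barcode of 9968 held 71.4% of them. Dcn, a fibroblast proteoglycan, had 62 UMIs in 8 astrocytes, 58.1% in 1 barcode of 9968. Alas2, a haem enzyme of red cell precursors, had 20 UMIs in 2 astrocytes, and Krtdap, of skin, had 19 UMIs in 1 astrocyte of 9968. Olfr1369-ps1, an olfactory receptor pseudogene, was the lower gene, with 41 UMIs in 3 astrocytes, 2 of them in 9949. The blood markers were at 9911 CPM in 9968 and at 23.7 CPM or less in the other libraries, and 1 barcode held 99.4% of the Hbb-bs UMIs. All 5 blood markers had UMIs, and 1 of them, Alas2, was itself a call, with 95% of its UMIs in 1 barcode of 9968. The part of blood RNA in the other calls was not tested. The markers of ependymal, choroid and fibroblast cells, led by Ccdc153, were at 48.6 CPM in 9967, 347 in 9968 and 472 in 9971, against 0 to 210 in BCD/Ket, so the groups overlapped. The next genes by p, which did not pass, were Pde10a (log2 fold change -1.88, turning to 0.72 without 9949), Hbb-bs, Islr and Ankub1.

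Glucocorticoid-responsive genes had 0 calls of 23 tested. Their median log2 fold change was -0.32, with 4 of 23 positive, against -0.000157 over all genes. The lean was not confined to this list. Immediate early and tissue dissociation genes had a median of -0.22, with 7 of 22 positive, and energy genes -0.19, with 5 of 20. Lipid genes had 0.03, with 19 of 30 positive. Tsc22d3, a classical glucocorticoid target, was at 110 CPM in 9946, 239 in 9949 and 139 in 9986, and at 48.6 in 9967, 101 in 9968 and 74.1 in 9971. These groups did not overlap, although the values of 9946 and 9967 are 1 UMI each, and the gene did not pass (log2 fold change -1.14 ± 0.47, adjusted p = 1.00). Without the small libraries the fold change was -1.15 and the edgeR adjusted p was 0.400. Klf9, a hormone-responsive repressor, was at 221 to 304 CPM in BCD/Ket and 146 to 220 CPM in CORT/Ket, which barely separated the groups, with 2 UMIs behind the value of 9946 (221 CPM), and its log2 fold change was -0.48. In all, 5 of the 23 genes did not overlap between the groups, against 6.87% of all genes tested. Dbp, an output gene of the clock, was at 110, 308 and 292 CPM in BCD/Ket and 48.6, 149 and 110 in CORT/Ket, and the groups overlapped. Its log2 fold change was -1.20 with the small libraries and -1.23 without them, where the edgeR adjusted p was 0.0795. Fkbp5 and Sgk1, other known targets, were near the floor of detection, at 5.83 ± 3.05 CPM and 2.30 ± 3.54 CPM.

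The Notch targets Hes1 and Hes5 had fold changes of opposite sign, and neither passed. Hes1 was at 0, 202 and 52.5 CPM in BCD/Ket and 97.2, 44.8 and 68.6 in CORT/Ket (log2 fold change -1.18, adjusted p = 1.00, and 0.27 without 9949). Hes5 was at 110, 477 and 368 CPM in BCD/Ket and 389, 996 and 502 in CORT/Ket (0.81), and the groups overlapped for both genes. Without the small libraries neither passed (edgeR adjusted p = 1.00 for both). The single CORT/Sal library had Hes5 at 690 CPM (95% Poisson interval 621 to 765, counting error only) and Tsc22d3 at 89.1 CPM (65.5 to 118).

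**Figure D5:**
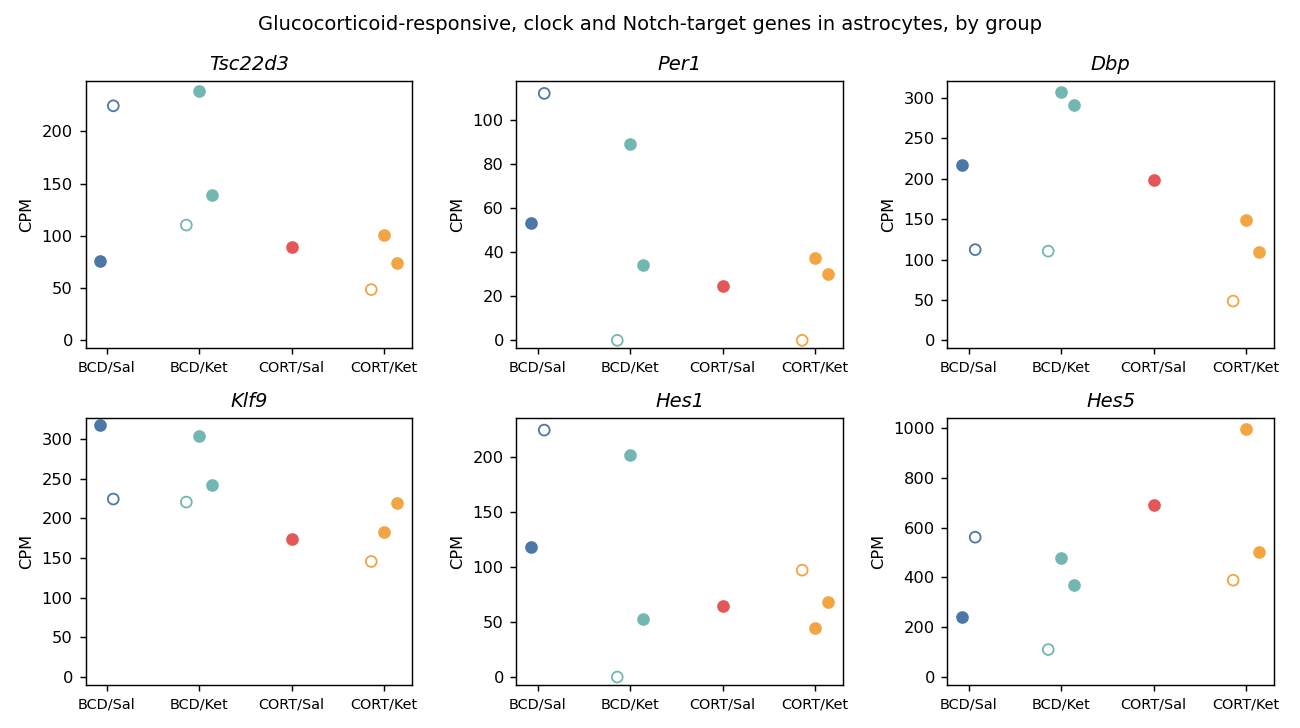
CPM in astrocytes by group for 6 genes, 1 point per library, with open circles for the 3 small libraries. Tsc22d3 is at 110 to 239 CPM in BCD/Ket and at 48.6 to 101 CPM in CORT/Ket, while the single large BCD/Sal library lies at 76.1 CPM.

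A fit of both treatments, which assumes that their effects add on the log scale, drew on the CORT/Sal library too. It uses the same libraries as the comparisons above. For corticosterone, 1 gene of 9043 passed (0.0111%), Olfr1369-ps1, which fell by 6.04 on the log2 scale. No gene passed without the small libraries, and the sides did not overlap for 1.18% of genes tested. The genes next in p, which did not pass, were Alas2, Dcn, Krtdap, Snap25, Myt1l, Igfbp4, Nmt1, Igsf9b and Prr18. DESeq2 called 0 and 257 genes had an unadjusted edgeR p under 0.05. Of 23 glucocorticoid-responsive genes tested, 0 passed and 7 had a positive fold change. Their median log2 fold change was -0.38, against 0.03 over all genes. Single listed genes that did not pass went both ways. Hes1 had a log2 fold change of -1.05 ± 0.37 and Per1, a clock gene induced by glucocorticoids, of -0.99 ± 0.39, while Fdps had 0.92 ± 0.37 and Angptl4, a lipase inhibitor induced by glucocorticoids, 0.91 ± 0.40, each with an adjusted p of 1.00. The library CPM of Per1 ran from 0 to 112 on the BCD side and from 0 to 37.3 on the CORT side.

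For ketamine, 32 genes passed, all lower (0.354%). DESeq2 called 0 and 299 genes had an unadjusted edgeR p under 0.05. Of the 16 cilium genes of the same list, 9 passed as lower, with a median log2 fold change of -1.54, again a description. Foxj1 was at 101 CPM in 9901 and 68.2 in 9969, the large saline libraries, and at 14.6, 26.3, 31.7 and 27.4 in 9949, 9986, 9968 and 9971 (log2 fold change -1.70 ± 0.40, adjusted p = 0.0148). The large saline libraries lay above the large ketamine libraries, but the small saline library 9947 was at 0, so the sides overlapped. Over 50% of the UMIs of 28 of the 32 genes came from the 24 ciliated barcodes, and without those barcodes 0 genes passed. The count was also 0 without 9901 or without 9949, and 3 without the small libraries, Foxj1 (edgeR adjusted p = 0.0227) among them. Ccdc78, a centriole gene, was the only one of the 32 whose sides did not overlap (-2.81 ± 0.69, edgeR adjusted p = 0.844 without the small libraries), against 0.984% of all genes tested. Its 28 UMIs lay in 16 astrocytes, and the value of 9947 rested on 1 astrocyte.

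The share of astrocytes among kept barcodes was 26.3 ± 6.55% in CORT/Ket (SD, n = 3), 18.7 ± 12.2% in BCD/Ket (n = 3) and 13.3 ± 11.4% in BCD/Sal (n = 2). CORT/Ket did not differ from BCD/Ket beyond the spread (exact permutation test, two-sided, p = 0.5, adjusted p = 0.889 over 10 tests), nor did BCD/Ket from BCD/Sal (exact p = 0.6). The smallest p that 3 mice against 3 allow is 0.1, and 3 against 2 cannot reach it. The share was 21.4% in 9901, 5.20% in 9947 and 4.71% in 9946. The small libraries 9947 and 9946 thus set much of the spread in BCD/Sal and BCD/Ket. In CORT/Ket the share was 20.7% in the small library 9967, 33.5% in 9968 and 24.6% in 9971. Median depth and median mitochondrial percent also did not differ beyond the spread in either comparison (exact permutation tests, every adjusted p = 0.889).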

How the data were processed

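Single-cell suspensions were captured on the 10x Chromium platform, and the deposited matrices hold UMI counts per gene and barcode, which the authors made with Cell Ranger (3.0.2 by the file header). Their processing notes also name Seurat 3.1.1 and mm9. The study's own analysis filtered, merged and normalised the samples and clustered the cells, but the matrices hold raw counts. Doublet removal and batches are not given in the sources used here, and no doublet caller was run. The gene lists and the rule that chose astrocytes were chosen with earlier results of these data known. Barcodes were filtered at 1 in 8 mitochondrial UMIs and 200 genes. Astrocyte counts were summed per library (8909 to 548792 UMIs) and tested with edgeR 4.0.16 (TMM factors, filterByExpr, robust quasi-likelihood, Benjamini-Hochberg at 0.05) in R 4.3.3. DESeq2 1.42.0 was an alternative. Genes were named from the fixed lists, from non-overlapping calls, as the 10 of smallest p, or by largest fold over other barcodes. Where fewer passed, this was said. Ptgds, Ass1 and genes of the cilium list were named after their values were seen. Intervals cover counting error only. Some genes that the lists or the rule name are not reported here.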

Additional observations from a re-analysis of the deposited data

Results flagged for a closer look

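In CORT/Sal 9970, the library left out of every comparison, 131 barcodes met the marker limits. Only 1.68% of their UMIs came from the 12 astrocyte genes, against 5.36% to 7.54% in the 6 large libraries, and 108 of the 131 were under 2%. All 131 had a UMI of Meg3, and 455 kept barcodes of that library met the limits for excitatory neurons. What these barcodes are was not tested.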

How the results depend on the processing

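Counts of genes past the threshold moved with most choices. For CORT/Ket against BCD/Ket (6 genes), the count was 3 with RLE factors, with a mitochondrial limit of 5% or with at least 5 marker UMIs, 1 with at least 500 or 1000 genes per cell, with libraries of at least 30 astrocytes or without ciliated barcodes and barcodes under 2% astrocyte genes, and 0 with DESeq2 or with only the 2 groups in the fit. For BCD/Ket against BCD/Sal (74), it was 116 without a filter on low counts, 231 with at least 1000 genes, 4 with the 5% limit, 8 with only the 2 groups, 32 without ciliated barcodes, 6 without those and the low-share barcodes, and 0 with DESeq2. For corticosterone in the additive fit (1), it was 2 with RLE factors, 3 with at least 5 marker UMIs, 5 without the filter, without ciliated barcodes or with 0 excluded UMIs, and 0 with DESeq2, the 5% limit, 500 or 1000 genes, or libraries of at least 30. For ketamine (32), it was 6 with 500 genes, 3 with 1000 genes or libraries of at least 30, and 0 with DESeq2, the 5% limit and both settings without ciliated barcodes. At the 5% limit, at 500 or 1000 genes, at 5 marker UMIs and with libraries of at least 30, BCD/Sal keeps 1 library. The cause of the moves in these counts was not tested. The settings without ciliated or low-share barcodes, and TMMwsp factors, were chosen after seeing the data.

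Leaving out 1 library gave 1 (9969) to 11 (9971) genes for CORT/Ket against BCD/Ket, with 10 without 9949 and 3 without 9947, 9946 or 9968. For BCD/Ket against BCD/Sal it gave 0 (9901) to 108 (9986), with 4 without 9949 and 23 without 9969. For corticosterone it gave 0 (9949) to 13 (9971), with 7 without 9901, 5 without 9986 and 3 without 9968. For ketamine it gave 0 (9901 or 9949) to 44 (9971), with 21 without 9986 or 9968. The astrocyte share, BCD/Ket minus BCD/Sal (5.45 percentage points), was -3.56 at the 5% limit and ran from -2.63 (without 9947) to 13.5 (without 9901); CORT/Ket minus BCD/Ket ran from 0.536 to 11.9.

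Of 10 sign turns of single genes, 4 came without 9901 in BCD/Ket against BCD/Sal. BCD/Sal is then 13 astrocytes, and the median log2 fold change over all genes is 5.48 against 0.08 with all libraries, so these turns lie in a shift of all genes. Dnah6 ran from -3.63 to 4.60 on the log2 scale when 1 library was left out, Hydin from -5.04 to 4.46, Syt1 from -2.71 to 5.31 and Ptgds from -5.16 to 6.54. Ptgds was also at 0.082 with at least 5 marker UMIs, 0.85 with 0 excluded UMIs and 1.52 without ciliated and low-share barcodes. In CORT/Ket against BCD/Ket, Pde10a ran from -2.92 to 0.72 and Hes1 from -1.63 to 0.27, both positive only without 9949. For corticosterone in the additive fit, Fdps was at -0.43 with the 5% limit. Of the other values of single genes, 472 kept their direction and side of the threshold, 95 lost the call and 4 gained it.

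No paired analysis was possible because the groups compared share no mouse number; numbers recur only between prefrontal and BLA samples of the same mouse, and prefrontal samples were not analysed here. Depth limits the small libraries most, since 1 UMI is worth over 48 CPM in each of them. Every p rests on 1 to 3 mice a group. The notes name mm9, yet 8047 of the 31053 genes in the files (25.9%) are not in the GENCODE M1 annotation of that build, so the build is in doubt and no coordinate was taken from the files.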
